A study of Mus musculus with 12 samples.

Results

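The 78 genes described here encode membrane carriers for amino acids, short peptides and monocarboxylates. They are every row of the 23668 in the table whose symbol belongs to the solute carrier (Slc) families 1, 3, 6, 7, 15, 16, 36, 38 or 43, chosen by name and not by their values. The families hold 7, 2, 17, 15, 5, 14, 4, 11 and 3 of the genes, in that order. RNA was sequenced from mouse embryonic stem cells of the strain labelled SV129, all grown on gelatin in medium with LIF, the cytokine that keeps such cells undifferentiated. TKO cells carry homozygous knockouts of RARalpha, RARbeta and RARgamma, the nuclear receptors of retinoic acid, and WT cells carry none of these. For 24 h each genotype received 1 uM all-trans retinoic acid (ATRA) or ethanol, its vehicle. The 4 groups are TKO with ATRA, TKO vehicle, WT with ATRA and WT vehicle, with 3 libraries each, called D, F and G after the column names. The RNA is from whole cultures, so fewer cells of a type and less RNA per cell cannot be told apart. Neither separate cultures behind the 3 libraries nor the number of TKO clones is stated, so each p-value covers library-to-library spread that may be technical, and genotype cannot be told apart from clone.

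Solute carriers move nutrients across membranes along gradients of sodium, protons or other amino acids. The Slc7 light chains pair with the Slc3 heavy chain and exchange amino acids, whereas Slc1, Slc6 and Slc38 members mostly import them with sodium. Slc15 and Slc36 carriers move peptides and amino acids, many of them with protons. Slc16 and Slc43 carriers mostly move monocarboxylates, aromatic or branched-chain amino acids, or other small molecules. Mouse embryonic stem cells depend on a steady supply of amino acids such as glutamine and threonine, and lowered amino acid supply raises many of these carriers through the transcription factor ATF4.

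Each library held 11397 to 12193 genes at 1 FPKM or more (fragments scaled by transcript length and sequenced total), and its depth is unknown. As for the deleted receptors, TKO cells still gave reads over Rara at 7.55 to 9.82, Rarb at 0.015 to 0.139 and Rarg at 11.8 to 17.5 FPKM over 6 libraries. In WT cells Rara was at 17.4 to 20.0 FPKM with ATRA and 9.15 to 14.1 in vehicle, Rarb at 5.13 to 7.3 and 0.235 to 0.506, and Rarg at 73.0 to 98.7 and 35.8 to 55.8. Values per gene cannot tell a deleted transcript from a whole one. All 10 stem cell markers were read in every library, the lowest being Fgf4 at 19.8 FPKM, with summed levels of 6711 to 7292 FPKM in TKO, 5255 to 6496 in WT with ATRA and 7997 to 9220 in WT vehicle. Dppa5a alone gave 3044 to 5006 FPKM, so the sum need not stand for the other markers. Zfp42 was at 127 to 198 FPKM in WT with ATRA and 498 to 591 in WT vehicle. Tdgf1 overlapped between these groups, at 583 to 833 and 567 to 669 FPKM. Summed levels of 12 extraembryonic endoderm markers were 20.1 to 34.4 FPKM in TKO, 29.9 to 35.4 in WT with ATRA and 8.44 to 16.1 in WT vehicle, with Afp and Ttr under 0.1 FPKM throughout. Summed levels of 10 trophoblast markers were 9.43 to 29.6 FPKM in TKO, mainly Hand1, and 5.91 to 8.4 in WT, with Prl3d1 under 0.1 FPKM. Of the 8 fibroblast markers (10.7 to 16.6 FPKM summed), Col3a1, Dcn, Lum and Postn were under 0.1 FPKM, with the other 4 read in most libraries. The 8 neural progenitor markers summed to 44.5 to 56.4 FPKM in TKO, 28.7 to 31.8 in WT with ATRA and 31.9 to 45.6 in WT vehicle, mostly Tubb3, with Dcx and Neurog2 under 0.1 FPKM. These marker levels move with genotype and treatment, and their part in the results below was not tested.

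The carriers most abundant at the RNA level were the 4F2 heavy chain and its leucine-transporting partner. Slc3a2, the heavy chain (CD98), averaged 194 FPKM over the 12 libraries, with a range of 123 to 231. Slc7a5, which encodes the light chain LAT1, averaged 155 FPKM, from 110.1 to 207. Next came Slc38a4 (97.7), Slc7a3 (97.2), Slc7a7 (92.1), Slc38a2 (78.2) and Slc1a5 (63.6), as mean FPKM, and the ranges of neighbours in this order overlapped. 16 members stood at 10 FPKM or more in all 12 libraries and 36 at 1 FPKM or more. Coordinates given with the genes are those of the GENCODE annotation of GRCm38. Slc7a7 shares exonic sequence with Oxa1l on the other strand, and its level is uncertain because no source used here states strand. Other members with exons over an opposite-strand gene include Slc1a1, Slc6a6, Slc6a9, Slc15a4, Slc16a6, Slc16a9, Slc38a9, Slc38a10 and Slc43a2, all of which missed the threshold in the 5 comparisons when no block for the letter in the library names was used. With that block Slc7a7, Slc1a1, Slc6a6, Slc15a4, Slc16a6 and Slc38a10 passed for ATRA in WT, and the first 3 and Slc16a6 for the difference of the ATRA effects.

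44 members reached 1 FPKM in at least 3 libraries and were tested; the other 34 were not. Slc7a12 was listed at 0 in every library, and 10 members stayed at or below 0.1 FPKM in every library. The brain carriers Slc1a2 (glutamate), Slc6a3 (dopamine), Slc6a4 (serotonin) and Slc6a5 (glycine) and the kidney and gut carriers Slc3a1, Slc6a18 and Slc6a19 were among the untested. 2 of the 44, among them Slc7a8, reached 1 FPKM only in WT with ATRA and so had to differ to be tested at all. Slc15a2 and Slc38a8 reached it only in WT libraries and Slc16a9 only in TKO libraries, so counts over the 44 describe the tested genes and are not support.

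**Figure D1:**
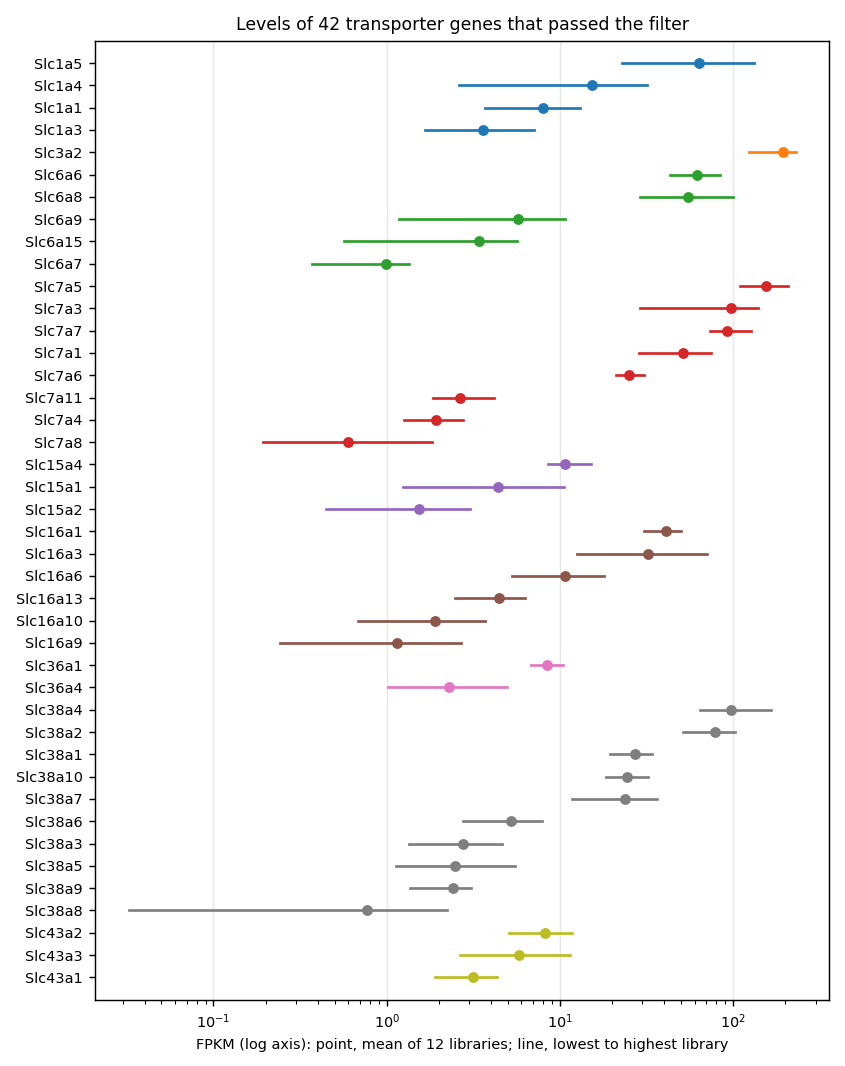
FPKM of 42 tested members on a log axis, grouped by family; points are means of 12 libraries and lines run from the lowest to the highest library. Slc3a2 and Slc7a5 stand highest.

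ATRA changed 13 of the 44 tested members in WT cells (29.5%) and 0 in TKO cells (0.00% of all tested genes there). In WT 10 rose, among them the nucleobase carrier Slc43a3 and the amino acid carrier Slc36a4, and 3 fell, the arginine and lysine carrier Slc7a3, the neutral amino acid carrier Slc6a15 and the peptide carrier Slc15a1. Over all 12362 tested genes 16.7% passed the same limma test (Benjamini-Hochberg adjusted p under 0.05), 11.6% higher and 5.14% lower. The median log2 change was 0.09 over the tested members and 0.05 over all tested genes, where log2 values are differences of log2(FPKM + 1), a scale that understates changes of low genes. The member median was −0.014 with quantile normalization, −0.049 with a filter at 5 FPKM and 0.028 with median-of-ratios scaling, so it gives no direction. By family 3 of 8 tested Slc7 members, 3 of 7 Slc16, 2 of 10 Slc38, 2 of 3 Slc15, 1 of 2 Slc36, 1 of 3 Slc43 and 1 of 6 Slc6 members changed, and 0 of 4 Slc1 and 0 of 1 Slc3. In 11 members every ATRA library lay above, and in 5 below, every vehicle library, where 34.4% of all tested genes did not overlap. With quantile normalization 8 rose and 4 fell, where 15.6% of all genes were called in either direction.

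Libraries of the same genotype and letter deviate together, and with a block for letter inside each genotype 29 of the 44 members were called in WT, where the share of all genes was 55.7%. The 16 members called only with the block are Slc15a4, Slc16a3, Slc16a6, Slc1a1, Slc1a3, Slc1a5, Slc38a10, Slc38a7, Slc38a8, Slc3a2, Slc43a1, Slc6a6, Slc6a8, Slc7a4, Slc7a5 and Slc7a7. In TKO the count stayed at 0 with the block, and 0 members had an unadjusted p under 0.05 without it (0.0971% of all tested genes). That share is far below the 0.05 that unchanged genes would give. The fit without the block counts the spread between letters as error, so its 0 in TKO is no measure of how small the effects are. Fitted on TKO libraries alone with the block, 5 members had an unadjusted p under 0.05 (6.71% of all genes), the smallest adjusted p of a member was 0.734, and 0.0243% of all genes passed. The log2 changes in TKO ran from −0.19 for Slc1a1 to 0.22 for Slc38a3, and 41 of the 44 intervals, each at 95% confidence, lay within 1 log2 unit of 0 and 24 within 0.5. With TKO libraries alone and the block all 44 lay within 0.5 and 36 within 0.25. These are bounds on the log2(FPKM + 1) scale, where a gene near 0 FPKM lies within them even if its fold change is large.

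The difference between the ATRA effects of the genotypes passed for 8 of the 44 members (18.2%), against 5.43% of all tested genes, 1.47% higher and 3.96% lower. The effect was lower in TKO than in WT for 6, among them Slc43a3, Slc7a8, Slc38a5, Slc36a4 and Slc38a4, and higher for Slc7a3 and Slc6a15. With the letter block 20 members passed, against 39.0% of all genes. Under quantile normalization the split was 3 higher and 5 lower, where 5.07% of all genes passed. TKO and WT cells also differed without ATRA, in 11 of 44 members, against 24.6% of all genes, with 5 higher (11.8%) and 6 lower (12.8%). When both had ATRA 18 of 44 differed (40.9%, against 42.1%), 6 higher (16.4% of all genes) and 12 lower in TKO (25.7%); both shares are near those of all genes. The median log2 difference was 0.01 for members and −0.02 for all genes in vehicle, and −0.21 and −0.07 with ATRA. The split depended on scaling: with quantile normalization it was 8 higher and 5 lower in vehicle and 11 and 11 with ATRA, and with median-of-ratios scaling 10 and 12 with ATRA, where the median of all genes shifted by 0.101. Of all genes, quantile normalization called 26.6% in vehicle and 43.2% with ATRA, and median-of-ratios scaling 41.6% with ATRA, in either direction. Centred on the chromosome's median the split in vehicle was 6 and 4, and the share of all genes in that setting is not given here. The libraries did not overlap in 20 members in vehicle (12 higher, 8 lower) and 22 with ATRA (7 higher, 15 lower), against 40.4% and 51.8% of all genes. Comparisons that share a group are not independent of each other.

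**Figure D2:**
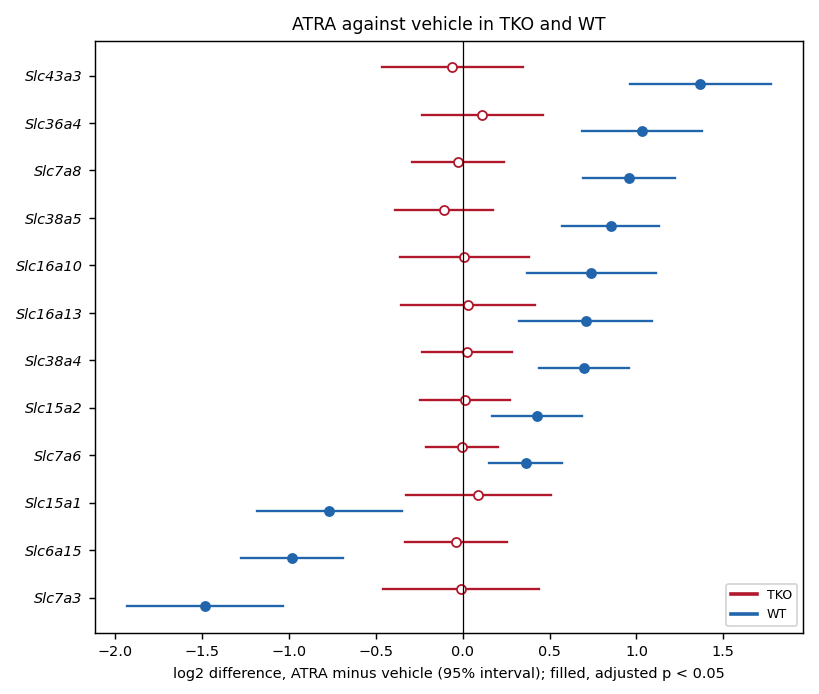
log2 difference (ATRA minus vehicle, with 95% interval) of 12 of the members called in WT, in TKO (red, above) and WT (blue, below); filled points passed adjusted p under 0.05. All 12 TKO values lie between −0.11 and 0.11 while the WT values run from −1.48 to 1.37.

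Among the light and heavy chains of the exchangers, Slc3a2 and Slc7a5 did not pass for ATRA in WT without the letter block. The LAT2 gene Slc7a8 stood higher in WT with ATRA, the only group in which it reached 1 FPKM. Slc3a2 (chr19:8706882-8723369, minus strand) was at 226, 136 and 219 FPKM in the D, F and G libraries of TKO with ATRA, against 231, 145 and 228 FPKM in TKO vehicle. The WT libraries held 189.8, 215 and 123 FPKM with ATRA, against 215, 226 and 177 FPKM in vehicle. The groups overlapped, and the F library was the lowest in both TKO groups and the G library in both WT groups. The log2 change with ATRA in WT was −0.26 (adjusted p = 0.557, or 0.013 with the letter block). Slc7a5 (chr8:121881150-121907694, minus strand) was at 165, 120.4 and 151 FPKM in the D, F and G libraries of TKO with ATRA, against 172, 123 and 171 FPKM in TKO vehicle. In WT it was at 131, 196 and 110.1 FPKM with ATRA, against 188, 207 and 131 FPKM in vehicle. Slc7a5 showed the same low libraries, and its log2 change with ATRA in WT was −0.28 (adjusted p = 0.473, or 0.00832 with the block).

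Slc7a8 encodes LAT2, another light chain for neutral amino acids. Slc7a8 averaged 0.335 ± 0.15 FPKM in TKO with ATRA, 0.355 ± 0.0683 in TKO vehicle, 1.44 ± 0.342 in WT with ATRA and 0.254 ± 0.0524 in WT vehicle (SD, n = 3). Every WT library with ATRA lay above every other library, and the rise in WT was 0.95 (SE 0.12, adjusted p = 3.5e-04), at 5.7 times the vehicle mean. The TKO effect less the WT effect was −0.98 (SE 0.17, adjusted p = 0.00716). Slc7a8 reached 1 FPKM only in WT with ATRA and so had to differ to be tested. Its p-values and the lack of overlap are no support. Slc7a6, the light chain y+LAT2, rose by a smaller amount (log2 difference 0.36, SE 0.10, adjusted p = 0.0232), with means of 25.1 ± 1.55 FPKM in TKO with ATRA, 25.1 ± 1.69 in TKO vehicle, 28.4 ± 2.99 in WT with ATRA and 21.8 ± 1.04 in WT vehicle. It did not pass without the D or F library of WT vehicle or the D or G library of WT with ATRA (adjusted p = 0.0698 to 0.0928), or with median-of-ratios scaling (adjusted p = 0.173). Slc7a7, the light chain y+LAT1, did not pass in WT without the block (log2 change 0.42, adjusted p = 0.0917, or 6.4e-04 with it). Slc7a11, the cystine and glutamate exchanger xCT, was higher in TKO than in WT vehicle (log2 difference 0.60, SE 0.16, adjusted p = 0.0193), with means of 3.46 ± 0.92 and 1.9 ± 0.0688 FPKM. That call ended without the D library of either group or the G library of TKO vehicle (adjusted p = 0.0621 to 0.0747).

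The carrier of arginine and lysine Slc7a3 (CAT3) fell with ATRA in WT. Slc7a3 (chrX:101079210-101086020, minus strand) was at 119.6, 139.5 and 109.5 FPKM in the D, F and G libraries of TKO with ATRA, against 121, 131 and 118 FPKM in TKO vehicle. WT libraries had values of 28.9, 56.2 and 30.2 FPKM with ATRA, against 99.8, 113 and 99.9 FPKM in vehicle. Every WT library with ATRA lay below all 9 others, and F was the highest of them. The change in WT was −1.48 (SE 0.20, adjusted p = 5.8e-04), at 0.369 times the vehicle mean, and in TKO −0.01 with an interval of −0.46 to 0.44. The TKO effect less the WT effect was 1.47 (SE 0.29, adjusted p = 0.013), and TKO exceeded WT with ATRA (log2 difference 1.71, SE 0.20, adjusted p = 6.8e-05). The difference of effects did not pass without the G libraries of WT and the F libraries of TKO (adjusted p = 0.0919). Slc7a1 (CAT1), which carries the same amino acids, missed the threshold in all 5 comparisons (letter block included where it was run), with means of 45.4 ± 15.1, 49.4 ± 17.7, 55.4 ± 18 and 56.8 ± 14.5 FPKM in TKO with ATRA, TKO vehicle, WT with ATRA and WT vehicle. Over the 12 libraries the members most alike to Slc7a3 were Slc6a15, Slc6a8 and Slc6a7 (Pearson r of log2(FPKM + 1) of 0.872, 0.787 and 0.705), a description that reflects shared groups.

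Slc6a15 and Slc6a8 stood apart by genotype. Slc6a15 encodes a sodium-coupled carrier of branched-chain amino acids and proline. Slc6a15 (chr10:103367783-103419377, plus strand) was at 5.4, 5.5 and 4.99 FPKM in the D, F and G libraries of TKO with ATRA, against 5.65, 5.5 and 5.22 FPKM in TKO vehicle. Values in WT were 0.675, 0.658 and 0.565 FPKM with ATRA, against 3.03, 1.69 and 2.08 FPKM in vehicle. The 6 TKO libraries lay above all WT libraries, and the WT libraries with ATRA lay below the other 9. TKO exceeded WT in vehicle (log2 difference 1.00, SE 0.13, adjusted p = 5.2e-04) and with ATRA (log2 difference 1.95, SE 0.13, adjusted p = 1.7e-06). ATRA lowered it in WT (log2 difference −0.98, SE 0.13, adjusted p = 5.7e-04), and the TKO effect less the WT effect was 0.94 (SE 0.19, adjusted p = 0.0144), which did not pass without the G libraries of WT and the F libraries of TKO (0.93, adjusted p = 0.0945).

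Slc6a8 encodes the creatine transporter. Slc6a8 (chrX:73673150-73682502, plus strand) was at 64.9, 99.2 and 61 FPKM in the D, F and G libraries of TKO with ATRA, against 61.8, 99.7 and 60.2 FPKM in TKO vehicle. Its WT levels were 29.1, 31.7 and 29.8 FPKM with ATRA, against 39.9, 38.4 and 41.4 FPKM in vehicle. TKO libraries lay above all WT libraries, and the F library of TKO was the highest in both treatments. TKO exceeded WT in vehicle (log2 difference 0.83, SE 0.20, adjusted p = 0.0121) and with ATRA (log2 difference 1.25, SE 0.20, adjusted p = 5.5e-04), while ATRA in WT gave −0.39 (adjusted p = 0.229, or 7.3e-05 with the letter block). Of the 9 genes listed for creatine, taurine and betaine handling, 4 were higher and 1 lower in TKO in vehicle and 4 higher and 2 lower with ATRA. Over all tested genes these shares were 11.8% and 12.8% in vehicle and 16.4% and 25.7% with ATRA. In WT 1 of the 9 rose with ATRA and 2 fell, where 16.7% of all genes changed. Gatm, the first enzyme of creatine synthesis, averaged 1.72 ± 0.193 FPKM in TKO with ATRA, 2.04 ± 0.274 in TKO vehicle, 6.42 ± 0.762 in WT with ATRA and 1.28 ± 0.295 in WT vehicle, and rose in WT (log2 difference 1.71, SE 0.13, adjusted p = 1.1e-05). The creatine kinase gene Ckb averaged 101 ± 4.2, 103 ± 1.52, 26.1 ± 3.88 and 45.7 ± 6.28 FPKM in the same order and fell in WT (log2 difference −0.79, SE 0.12, adjusted p = 0.00106). The mitochondrial creatine kinase gene Ckmt1 also fell (log2 difference −1.16, SE 0.13, adjusted p = 1.7e-04).

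Slc6a6, the taurine transporter and the most abundant Slc6 member, missed the threshold without the letter block. Slc6a6 (chr6:91684053-91759066, plus strand) was at 51, 69.3 and 63.9 FPKM in the D, F and G libraries of TKO with ATRA, against 47.3, 67.7 and 54.5 FPKM in TKO vehicle. In the WT libraries it stood at 58.9, 43.2 and 62.8 FPKM with ATRA, against 76.7, 61.2 and 83.8 FPKM in vehicle. The groups overlapped, and the change in WT was −0.43 (adjusted p = 0.141, or 3.7e-05 with the letter block); an opposite-strand gene overlaps its exons. The proline transporter gene Slc6a7 was higher in TKO with ATRA, at 1.28 ± 0.0659 FPKM against 0.692 ± 0.441 in WT with ATRA (log2 difference 0.46, SE 0.17, adjusted p = 0.0423). That call ended without the G libraries of WT and the F libraries of TKO (adjusted p = 0.174). It also ended without any 1 of 8 libraries (adjusted p = 0.0546 to 0.165), the 3 of TKO with ATRA, D and G of WT with ATRA, D and G of TKO vehicle and D of WT vehicle.

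Slc1a5 encodes ASCT2, which exchanges glutamine and other neutral amino acids. Slc1a5 (chr7:16781340-16798274, plus strand) was at 44.4, 23 and 40.8 FPKM in the D, F and G libraries of TKO with ATRA, against 45.1, 23.5 and 47.7 FPKM in TKO vehicle. WT cells had 103, 132 and 87.8 FPKM with ATRA, against 79.7, 85.9 and 50.5 FPKM in vehicle. All TKO libraries lay below all WT libraries, those of WT with ATRA were the highest, and F of TKO and G of WT were the lowest of their groups. TKO was lower with ATRA (log2 difference −1.58, SE 0.32, adjusted p = 0.00208), at 0.335 times the WT mean, and in vehicle the difference was −0.90 (adjusted p = 0.0577). ATRA in WT gave 0.59 (adjusted p = 0.246), which passed with the letter block (adjusted p = 1.5e-04). Slc1a3, a glutamate and aspartate carrier (GLAST), was lower in TKO than in WT vehicle, at 2.57 ± 0.623 against 5.33 ± 1.99 FPKM (log2 difference −0.79, SE 0.25, adjusted p = 0.0424). That call ended when any of 8 libraries was left out (adjusted p = 0.0502 to 0.132), namely the 3 of TKO vehicle, D and G of WT vehicle, D and G of TKO with ATRA and D of WT with ATRA, and with quantile normalization (0.0518). Slc1a1, another glutamate carrier, did not pass in WT with ATRA (−0.94, adjusted p = 0.1), although its 3 libraries lay below those in vehicle; the adjusted p was 8.4e-06 with the block.

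Of the sodium-coupled Slc38 carriers, Slc38a4 and Slc38a5 rose with ATRA in WT. Slc38a4 encodes SNAT4, a carrier of small neutral amino acids and an imprinted gene in mouse. Slc38a4 (chr15:96994820-97055956, minus strand) was at 83.6, 64.8 and 69.6 FPKM in the D, F and G libraries of TKO with ATRA, against 82, 67.1 and 64.9 FPKM in TKO vehicle. The WT libraries held 165, 155 and 139.8 FPKM with ATRA, against 101, 92.5 and 88.5 FPKM in vehicle. The WT libraries with ATRA lay above all others and TKO libraries below all WT libraries. ATRA raised it in WT (log2 difference 0.70, SE 0.12, adjusted p = 0.00208), and TKO was lower with ATRA (log2 difference −1.07, SE 0.12, adjusted p = 3.9e-05) and in vehicle (log2 difference −0.40, SE 0.12, adjusted p = 0.0302). The difference of effects was −0.67 (SE 0.17, adjusted p = 0.0392); it ended when any of 8 libraries was left out (adjusted p = 0.0604 to 0.109), all but G of WT with ATRA, F and G of TKO vehicle and D of TKO with ATRA. The vehicle difference ended without D or F of WT vehicle or F or G of TKO vehicle (adjusted p = 0.0664 to 0.111). The letter block gave an adjusted p of 2.4e-05 for the difference of effects.

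Slc38a5 encodes SNAT5, a carrier of glutamine, histidine and asparagine. Slc38a5 (chrX:8271133-8280179, plus strand) was at 1.51, 1.44 and 1.13 FPKM in the D, F and G libraries of TKO with ATRA, against 1.38, 1.88 and 1.38 FPKM in TKO vehicle. In WT it was at 4.44, 5.47 and 4.55 FPKM with ATRA, against 2.07, 2 and 2.62 FPKM in vehicle. The WT libraries with ATRA lay above all others, and the TKO libraries lay below all WT libraries. ATRA raised it in WT (log2 difference 0.85, SE 0.13, adjusted p = 0.00101) to 2.16 times the vehicle mean. The TKO effect less the WT effect was −0.96 (SE 0.18, adjusted p = 0.0106), or −0.81 (adjusted p = 0.0754) with quantile normalization, and TKO was lower with ATRA (log2 difference −1.30, SE 0.13, adjusted p = 1.6e-05).

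Slc38a2 (SNAT2), whose RNA is known to rise when amino acids run short, was higher in TKO, at 95 ± 8.19 FPKM with ATRA and 95.9 ± 7.56 in vehicle, against 62 ± 11 and 60 ± 11 FPKM in WT. TKO exceeded WT with ATRA (log2 difference 0.62, SE 0.15, adjusted p = 0.0057) and in vehicle (log2 difference 0.68, SE 0.15, adjusted p = 0.0067). Slc38a3, a glutamine carrier (SNAT3), was lower in TKO, at 2.11 ± 0.395 with ATRA and 1.66 ± 0.308 FPKM in vehicle, against 3.87 ± 0.858 and 3.46 ± 1.03 FPKM in WT (−0.64 and −0.72, adjusted p = 0.0203 and 0.0192). It did not pass with ATRA without the D or G library of WT or the D or F library of TKO (adjusted p = 0.0541 to 0.083), nor in vehicle without the D or G library of WT or the F library of TKO (0.0553 to 0.0821). Slc38a8 averaged 0.237 ± 0.177 and 0.261 ± 0.189 FPKM in TKO with ATRA and in TKO vehicle, against 1.52 ± 0.683 and 1.08 ± 0.491 FPKM in WT (adjusted p = 0.00502 and 0.0449). In vehicle that call ended when any of 8 libraries was left out (adjusted p = 0.0575 to 0.15): the 3 of TKO vehicle, D and F of WT vehicle, D and G of TKO with ATRA and D of WT with ATRA. Slc38a8 reached 1 FPKM only in WT libraries, so its p-values between genotypes are no support.

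Of the peptide carriers of the cell surface, Slc15a1 was lower in TKO, while Slc15a2 reached 1 FPKM only in WT libraries. Slc15a1 encodes PEPT1, the proton-coupled carrier of di- and tripeptides. Slc15a1 (chr14:121459621-121505252, minus strand) was at 1.81, 1.24 and 1.79 FPKM in the D, F and G libraries of TKO with ATRA, against 1.38, 1.26 and 1.71 FPKM in TKO vehicle. WT libraries had values of 6, 6.06 and 3.38 FPKM with ATRA, against 10.6, 9.35 and 7.88 FPKM in vehicle. No TKO library reached the lowest WT library, and the WT libraries with ATRA lay below those in vehicle. TKO was lower in vehicle (log2 difference −2.06, SE 0.19, adjusted p = 6.6e-05) and with ATRA (log2 difference −1.21, SE 0.19, adjusted p = 4.5e-04). The fall with ATRA in WT was −0.77 (SE 0.19, adjusted p = 0.0179), and it missed the threshold without the D or F library of WT vehicle (adjusted p = 0.0506 to 0.0734). The difference of effects, 0.86, had an adjusted p of 0.0976, or 7.3e-04 with the letter block.

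Slc15a2 encodes PEPT2, the high-affinity relative of PEPT1. Slc15a2 (chr16:36750177-36784962, minus strand) was at 0.585, 0.448 and 0.929 FPKM in the D, F and G libraries of TKO with ATRA, against 0.538, 0.569 and 0.787 FPKM in TKO vehicle. Values in WT were 2.9, 3.04 and 2.91 FPKM with ATRA, against 1.81, 1.91 and 2.1 FPKM in vehicle. The TKO libraries stayed under 1 FPKM and below all WT libraries, and WT with ATRA lay above WT vehicle. TKO was lower in vehicle (log2 difference −0.85, SE 0.12, adjusted p = 6.6e-04) and with ATRA (log2 difference −1.26, SE 0.12, adjusted p = 1.3e-05). Slc15a2 reached 1 FPKM only in WT libraries and so entered the test through the genotype where it is high. These p-values are no support for a genotype difference. The rise with ATRA in WT, 0.43 (SE 0.12, adjusted p = 0.03), ended when any of the 6 WT libraries was left out (adjusted p = 0.0501 to 0.102) and with either other scaling (0.0531 and 0.211). The levels of all 5 Slc15 members summed to 11.39 to 12.32 FPKM in TKO with ATRA and 11.05 to 12.99 in TKO vehicle, against 19.9 to 21.7 and 20.3 to 23.9 FPKM in WT. Slc15a4, a lysosomal carrier of histidine and peptides, did not pass without the letter block. Slc15a4 (chr5:127595664-127632897, minus strand) was at 9.75, 10.6 and 8.65 FPKM in the D, F and G libraries of TKO with ATRA, against 9.13, 11.2 and 8.55 FPKM in TKO vehicle. Its WT levels were 12.7, 10.7 and 15.1 FPKM with ATRA, against 9.73, 9.01 and 13.9 FPKM in vehicle. Groups overlapped in all comparisons but TKO with ATRA against WT with ATRA, where all 3 TKO libraries were lower (−0.36, adjusted p = 0.103). For ATRA in WT the log2 change was 0.23 (adjusted p = 0.403, or 0.00871 with the block).

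Retinoic acid receptors bind repeats of the hexamers AGGTCA and AGTTCA, so the promoters of the called members were searched for both on both strands. RefSeq promoters (GRCm38.p6, 250 bases before to 50 after a start) were at hand for 54 of the 78 members and for 8 of the 13 called for ATRA in WT, with 11 promoters; Slc7a3, Slc43a3, Slc6a15 and Slc16a13 were among those with none. AGTTCA occurred in 4 of the 11, in Slc15a1 and all 3 of Slc38a4, and in 14% of all 32851 promoters searched. AGGTCA occurred in 0 of the 11 and in 16.3% of all. 2 hexamers in the same direction with a spacing of 2 or of 5 bases, where each hexamer also counts above, occurred in 0 of the 75 member promoters and in 0.0396% of all promoters for each spacing. A match in letters is no evidence of binding, and its absence from these windows says nothing about sites elsewhere. The promoter of Slc38a4 that holds 2 hexamers and the promoter of Slc15a1 are shown because these genes rose and fell with ATRA in WT; capitals mark AGTTCA or its reverse complement. They lie on the minus strand, at chr15:97031164-97031463 for Slc38a4, with hexamers from 5 bases before and 41 bases after the start, and at chr14:121505205-121505504 for Slc15a1, with 1 from 16 bases before it.
Slc38a4: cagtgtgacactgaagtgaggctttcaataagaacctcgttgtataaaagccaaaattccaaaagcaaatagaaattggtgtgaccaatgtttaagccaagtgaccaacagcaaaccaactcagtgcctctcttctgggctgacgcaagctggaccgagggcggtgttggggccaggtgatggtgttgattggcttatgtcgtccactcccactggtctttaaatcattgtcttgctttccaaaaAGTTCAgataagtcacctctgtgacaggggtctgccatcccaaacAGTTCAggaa
Slc15a1: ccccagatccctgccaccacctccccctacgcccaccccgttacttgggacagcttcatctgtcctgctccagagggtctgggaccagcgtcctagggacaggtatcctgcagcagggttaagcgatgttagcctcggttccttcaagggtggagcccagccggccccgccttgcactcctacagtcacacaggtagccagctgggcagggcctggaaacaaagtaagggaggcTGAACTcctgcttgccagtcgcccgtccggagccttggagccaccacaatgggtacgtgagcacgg
TGATGNAA, the core of the amino acid response element to which ATF4 binds, occurred in 0 of these 11 promoters and in 3.97% of all; among members it was found in promoters of Slc15a5, Slc1a4, Slc7a11 and Slc7a7.

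Slc16a10, the aromatic amino acid carrier TAT1, also rose with ATRA in WT. Slc16a10 (chr10:40033532-40142258, minus strand) was at 1.44, 0.817 and 1.44 FPKM in the D, F and G libraries of TKO with ATRA, against 1.35, 0.681 and 1.68 FPKM in TKO vehicle. In the WT libraries it stood at 3.32, 3.69 and 3.48 FPKM with ATRA, against 1.64, 1.79 and 1.64 FPKM in vehicle. The WT libraries with ATRA lay above the other 9, and the F library of TKO was the lowest in both treatments. ATRA raised it in WT (log2 difference 0.74, SE 0.17, adjusted p = 0.0121), and TKO was lower with ATRA (log2 difference −1.02, SE 0.17, adjusted p = 6.5e-04). The difference of effects, −0.73, had an adjusted p of 0.115, or 4.4e-04 with the letter block. Slc16a13, another member of the monocarboxylate family, averaged 4.71 ± 0.803 FPKM in TKO with ATRA, 4.62 ± 1.05 in TKO vehicle, 5.55 ± 0.956 in WT with ATRA and 3.01 ± 0.493 in WT vehicle. Its rise in WT, 0.71 (SE 0.17, adjusted p = 0.018), ended without F of WT vehicle or D or G of WT with ATRA (adjusted p = 0.0653 to 0.0719) and with quantile normalization (0.101).

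The tested lactate carrier genes Slc16a1 and Slc16a3 did not pass without the letter block; Slc16a7 and Slc16a8 were not tested. Slc16a1 encodes MCT1, a lactate and pyruvate carrier with the highest mean FPKM of the Slc16 family. Slc16a1 (chr3:104638668-104658462, plus strand) was at 37.9, 46.9 and 42.3 FPKM in the D, F and G libraries of TKO with ATRA, against 37.2, 48.3 and 37.2 FPKM in TKO vehicle. WT cells had 43.5, 35.9 and 46.2 FPKM with ATRA, against 35.8, 30.4 and 49.9 FPKM in vehicle. All groups overlapped, and the intervals of the log2 difference were −0.33 to 0.44 for ATRA in TKO and −0.25 to 0.52 in WT. Slc16a3 (MCT4), the lactate exporter of glycolytic cells, varied widely between letters. Slc16a3 (chr11:120948480-120960868, plus strand) was at 13.4, 62.3 and 16.5 FPKM in the D, F and G libraries of TKO with ATRA, against 13.5, 58.8 and 12.6 FPKM in TKO vehicle. The WT libraries held 44, 23.7 and 70.7 FPKM with ATRA, against 16.8, 14.4 and 40.1 FPKM in vehicle. F was the highest in both TKO groups and G in both WT groups, and the change in WT was 0.94 (adjusted p = 0.409, or 5.7e-04 with the block). For the difference of effects, −0.79, the adjusted p was 0.774, or 0.0111 with the block. Of 11 genes listed for lactate and pyruvate metabolism and carrier chaperones, 2 rose and 1 fell with ATRA in WT, and 3 were higher and 3 lower in TKO with ATRA (1 and 0 in vehicle). Over all tested genes 11.6% rose and 5.14% fell with ATRA in WT. In TKO 16.4% were higher and 25.7% lower with ATRA, and 11.8% and 12.8% in vehicle. With a list this short, nothing particular to it is read from these counts. Nptn, a chaperone of MCT carriers, rose in WT (log2 difference 0.30, SE 0.09, adjusted p = 0.044), as did the kinase gene Pdk3 (0.46, adjusted p = 0.0218), while Pdha1 of the pyruvate dehydrogenase complex fell (−0.39, adjusted p = 0.0151). Of the other chaperone genes, Bsg was lower in TKO with ATRA than in WT with ATRA (log2 difference −0.30, SE 0.09, adjusted p = 0.0251) and Emb was higher (log2 difference 0.56, SE 0.18, adjusted p = 0.0259).

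Slc36a4 (PAT4) carries amino acids such as proline and tryptophan. Slc36a4 (chr9:15709738-15743361, plus strand) was at 2.33, 1.96 and 2.01 FPKM in the D, F and G libraries of TKO with ATRA, against 2.07, 1.45 and 2.1 FPKM in TKO vehicle. In WT it was at 3.55, 4.92 and 3.11 FPKM with ATRA, against 1.51, 1.56 and 1.02 FPKM in vehicle. Each WT library with ATRA lay above the other 9 libraries, and F was the highest of them. ATRA raised it in WT (log2 difference 1.03, SE 0.16, adjusted p = 0.00117) to 2.83 times the vehicle mean, and TKO was lower with ATRA (log2 difference −0.63, SE 0.16, adjusted p = 0.00782). The difference of effects, −0.92 (SE 0.22, adjusted p = 0.0367), ended when any of 9 libraries was left out, all but F of WT vehicle, G of WT with ATRA and F of TKO vehicle (adjusted p = 0.0561 to 0.101), while the letter block gave an adjusted p of 3.5e-04. The lysosomal relative Slc36a1 (PAT1) did not pass. Slc36a1 (chr11:55204350-55236330, plus strand) was at 10.3, 7.4 and 10.4 FPKM in the D, F and G libraries of TKO with ATRA, against 9.7, 7.52 and 10.1 FPKM in TKO vehicle. WT libraries had values of 7.85, 7.54 and 6.85 FPKM with ATRA, against 8.75, 7.39 and 7.2 FPKM in vehicle. Its groups overlapped in every comparison.

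Slc43a3, which carries purine nucleobases rather than amino acids, rose with ATRA in WT. Slc43a3 (chr2:84936579-84958509, plus strand) was at 6.18, 4.1 and 5.16 FPKM in the D, F and G libraries of TKO with ATRA, against 6.12, 4.1 and 6.01 FPKM in TKO vehicle. Values in WT were 9.84, 11.4 and 7.65 FPKM with ATRA, against 2.97, 3.68 and 2.63 FPKM in vehicle. The WT libraries with ATRA were the highest and the WT vehicle libraries the lowest, with TKO between them. ATRA raised it in WT (log2 difference 1.37, SE 0.18, adjusted p = 5.4e-04) to 3.11 times the vehicle mean, and the TKO effect less the WT effect was −1.43 (SE 0.26, adjusted p = 0.00955). TKO was higher in vehicle (log2 difference 0.64, SE 0.18, adjusted p = 0.028) and lower with ATRA (log2 difference −0.79, SE 0.18, adjusted p = 0.00564). The vehicle call ended without the D or G library of either group (adjusted p = 0.0826 to 0.102). The leucine carrier gene Slc43a2 (LAT4) did not pass. Slc43a2 (chr11:75531694-75577575, plus strand) was at 11.2, 6.73 and 11.6 FPKM in the D, F and G libraries of TKO with ATRA, against 11.4, 7.2 and 11.8 FPKM in TKO vehicle. Its WT levels were 5.73, 7.94 and 5.08 FPKM with ATRA, against 7.45, 6.88 and 5.36 FPKM in vehicle. The F library of TKO overlapped the WT libraries in both treatments.

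**Figure D3:**
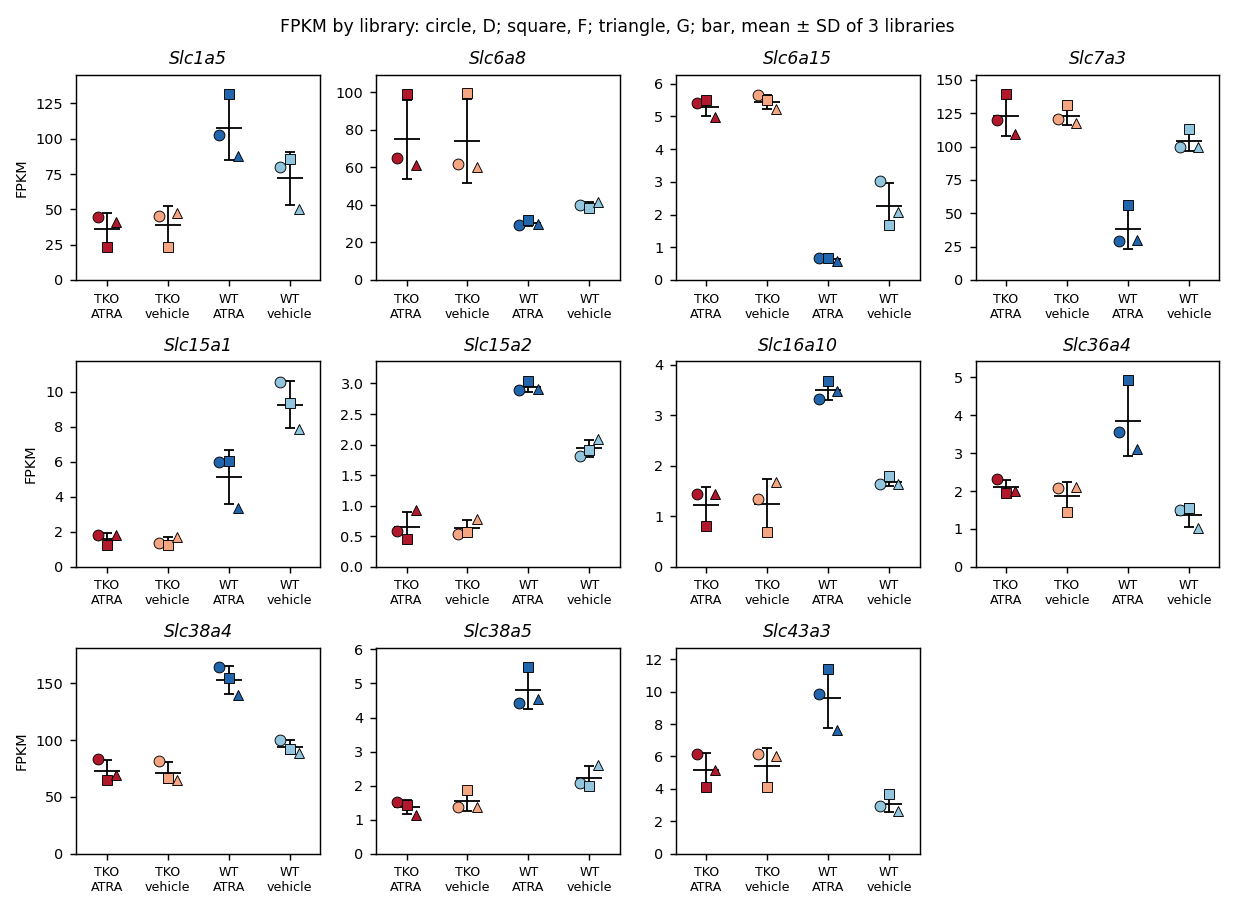
FPKM in each library (circle D, square F, triangle G) of 11 members called with a log2 difference of at least 1, by group, with mean ± SD of 3 libraries. WT with ATRA stands above the other groups in Slc36a4, Slc38a4, Slc38a5 and Slc43a3 and below them in Slc7a3 and Slc6a15, and TKO stands below WT in Slc15a1 and Slc15a2. Slc15a2 reached 1 FPKM only in WT libraries and so entered the test through the genotype where it is high.

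**Figure D4:**
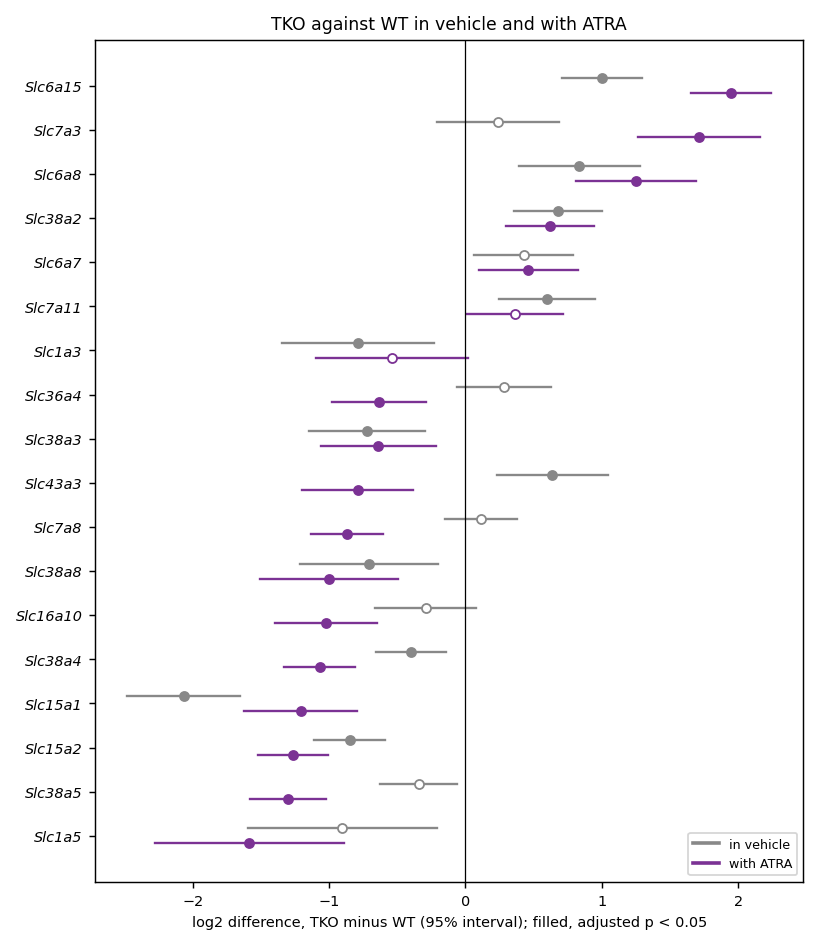
log2 difference (TKO minus WT, with 95% interval) of 18 members called in either treatment, in vehicle (grey, above) and with ATRA (purple, below); filled points passed adjusted p under 0.05. Slc43a3 is higher in vehicle at 0.64 and lower with ATRA at −0.79, while Slc15a1 is lower in both.

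Within groups, 1 library often stood apart: G in both WT groups and F in both TKO groups. These libraries were singled out after their values were seen. They were the lowest of their group in all 4 groups for 22 of the 44 tested members, where 26.0% of all tested genes showed this, and the highest for 6, where 14.1% did. Slc1a4 (ASCT1, a carrier of alanine, serine and cysteine) was at 11.6, 3 and 15.2 FPKM in TKO with ATRA and 11.3, 2.62 and 16 in TKO vehicle, and at 20.4, 31.8 and 10.1 in WT with ATRA and 21.8, 28.2 and 10.9 in WT vehicle. The glycine carrier gene Slc6a9 was at 5.51, 1.19 and 6.43 FPKM in TKO with ATRA, at 6, 1.3 and 7.95 in TKO vehicle, at 5.56, 10.8 and 3.14 in WT with ATRA and at 8.55, 9.69 and 2.98 in WT vehicle. In both genes the spread between letters within a group exceeded the difference between treatments at the same letter. The 6 members highest in those libraries were Slc6a6, Slc7a6, Slc15a4, Slc16a1, Slc16a3 and Slc38a10.

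Genes of the amino acid response, the ATF4 targets, showed this letter pattern as well. 20 of the 24 listed genes were lowest in G of WT and F of TKO (26.0% of all tested genes) and 0 were highest (14.1%). Chac1, a glutathione-degrading enzyme induced by ATF4, was at 55.1, 4.41 and 59.8 FPKM in TKO with ATRA and 56.4, 7.17 and 66.7 in TKO vehicle, and at 70.7, 78.9 and 6.86 in WT with ATRA and 79.9, 82.6 and 19.3 in WT vehicle. Atf4 itself was at 208, 142 and 222 FPKM in TKO with ATRA, at 216, 145 and 237 in TKO vehicle, at 292, 337 and 191 in WT with ATRA and at 351, 388 and 233 in WT vehicle. The low library of each group is the second value in TKO (F) and the last in WT (G). The cause of the pattern was not tested. With these libraries left out together, a choice made after seeing the data, the members called numbered 15 for ATRA in WT, 0 in TKO, 8 for the difference of effects, 13 for TKO against WT in vehicle and 25 with ATRA. Of all 12362 tested genes 1979 were then called for ATRA in WT and 1 in TKO, and 4.47%, 27.3% and 44.5% in the other comparisons, in the same order. Of the 24 genes 1 rose with ATRA in WT, Atf5 (log2 difference 0.76, SE 0.19, adjusted p = 0.0191), and 4 were lower in TKO in vehicle and 4 with ATRA, where 12.8% and 25.7% of all tested genes were lower. Those in vehicle were Atf5 and the serine synthesis genes Phgdh, Psat1 and Psph, by −1.20, −1.04, −0.71 and −0.77 (adjusted p = 0.00134, 0.0136, 0.0178 and 0.0461).

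**Figure D5:**
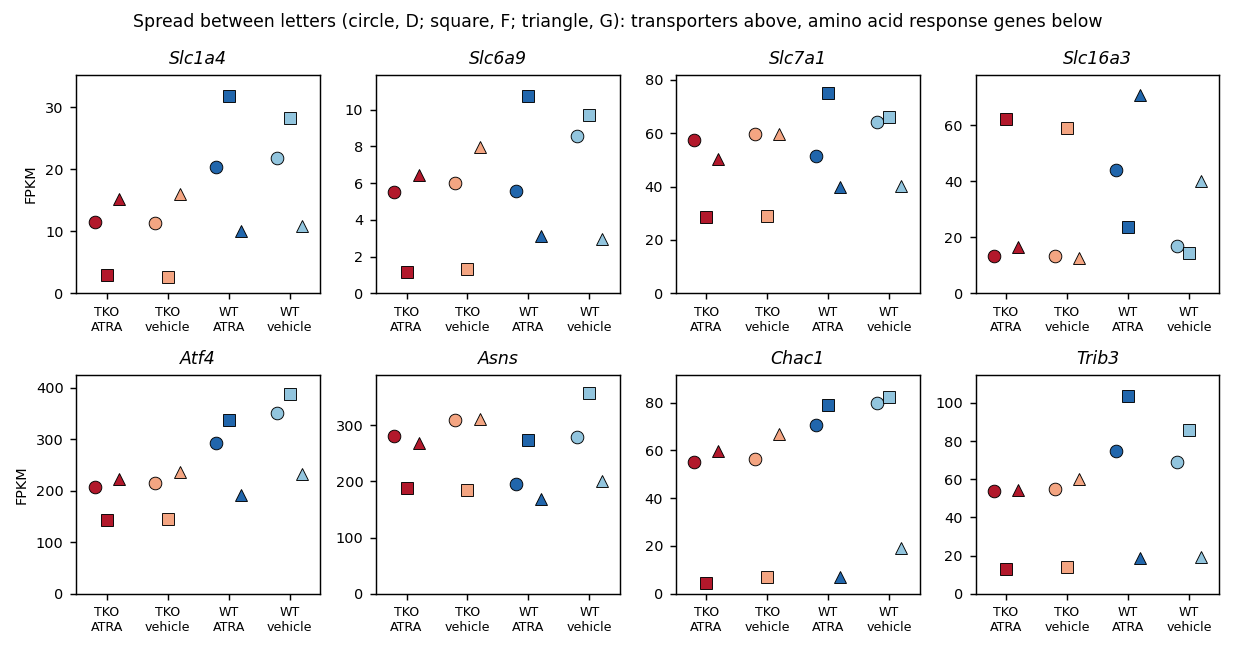
FPKM in each library (circle D, square F, triangle G) of 4 transporters (above) and 4 amino acid response genes (below), by group. G of WT and F of TKO are the lowest of their groups in Slc1a4, Slc6a9, Slc7a1, Atf4, Asns, Chac1 and Trib3 and the highest in Slc16a3.

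Genes of amino acid use were also counted by list, beside 11.6% of all tested genes that rose and 5.14% that fell with ATRA in WT; with lists this short, nothing particular to a list is read from its count. With ATRA in WT 3 of 20 cytosolic aminoacyl-tRNA synthetase genes fell and 0 rose, Rars, Qars and Farsb, by −0.35, −0.28 and −0.21 (adjusted p = 0.0337, 0.044 and 0.05), and 0 differed between genotypes in either treatment. Of 28 genes of mTORC1 and lysosomal nutrient sensing 1 rose, the sestrin gene Sesn1 (log2 difference 0.58, SE 0.17, adjusted p = 0.0368), and 1 fell, Tfeb, a transcription factor of lysosomal genes (log2 difference −1.35, SE 0.16, adjusted p = 2.2e-04). Tfeb averaged 17.3 ± 2.22 FPKM in TKO with ATRA, 15.8 ± 0.801 in TKO vehicle, 6.5 ± 1.63 in WT with ATRA and 17.9 ± 2.23 in WT vehicle, and its TKO effect less its WT effect was 1.47 (SE 0.23, adjusted p = 0.00349). Of 15 genes of glutamine, glutamate and aspartate metabolism 3 rose and 1 fell. Glud1, glutamate dehydrogenase, rose (log2 difference 0.92, SE 0.08, adjusted p = 2.0e-05), Gfpt1 of the hexosamine pathway (log2 difference 0.59, SE 0.09, adjusted p = 8.2e-04), and Ass1, argininosuccinate synthase, fell (log2 difference −0.47, SE 0.08, adjusted p = 0.00211). Of 9 tested mitochondrial carriers of amino acids and pyruvate, the pyruvate carrier subunit gene Mpc2 rose (log2 difference 0.49, SE 0.13, adjusted p = 0.0221) and the glycine carrier gene Slc25a38 fell (log2 difference −0.41, SE 0.10, adjusted p = 0.0192).

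Of 13 genes of glutathione and cystine handling, 1 rose and 2 fell with ATRA in WT, Srxn1 (0.71, adjusted p = 0.00534), Gpx1 (−0.79, adjusted p = 0.00325) and Cbs (−0.46, adjusted p = 0.0203). The glutathione peroxidase gene Gpx1 averaged 408 ± 28.6 FPKM in TKO with ATRA, 408 ± 36.1 in TKO vehicle, 123 ± 23.6 in WT with ATRA and 212 ± 32.7 in WT vehicle, and TKO exceeded WT in vehicle (log2 difference 0.95, SE 0.14, adjusted p = 0.00103). In that list 4 genes were higher and 4 lower in TKO in vehicle (24.6% of all tested genes differed), and 6 and 4 with ATRA (42.1%). The glutamine, glutamate and aspartate list had 2 higher and 4 lower in TKO in vehicle and 2 and 5 with ATRA, the mTORC1 list 2 and 2, then 4 and 3, and the mitochondrial carriers 1 and 0, then 2 and 1. Of 5 tested accessory and vesicular carriers 0 changed with ATRA in WT, and Slc17a7, a vesicular glutamate carrier, was lower in TKO vehicle than in WT vehicle (log2 difference −0.64, SE 0.20, adjusted p = 0.0406). In TKO cells 0 genes of any of these lists changed with ATRA. The medians of the lists in WT with ATRA ran from −0.16 for the mitochondrial carriers to −0.01 for the glutamine list, beside 0.05 for all tested genes.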

How the data were processed

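RNA from 12 mouse embryonic stem cell libraries in 4 groups was sequenced as single-end reads. Per the submitters' processing notes, reads were handled with STAR and Cufflinks on GRCm38; versions, parameters and the strand setting are not given in the sources used here. The authors deposited 1 table of gene-level values, taken as FPKM from the values and those notes, since no header names the unit. FPKM is scaled to transcript length and library size, so counting error and depth cannot be given, and 1 abundant gene can shift the others.

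Of 23686 rows, 18 exact duplicates were dropped. Genes at 1 FPKM or more in at least 3 libraries (12362) were tested with limma 3.58.1 (R 4.3.3) after a log2(FPKM + 1) transform, fitting a mean for each group to all 12 libraries, with Benjamini-Hochberg adjustment over all tested genes; the test was checked on simulated data. Intervals are 95% and come from this fit. Groups came from the labels and column names; the letters D, F and G of the columns could not be matched to the replicate numbers of the titles. Deviations from group means correlated at 0.376 to 0.864 for libraries of the same letter and genotype and at −0.515 to 0.287 for the same letter across genotypes, so the letter pairs treatments within a genotype, which the data show and no label states.

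Members were chosen by symbol, and they, the gene lists and the tests were chosen with earlier results of these data known. Given library by library were members called with a log2 difference of at least 1, and the most abundant member of each family; other called members are given by group means, and lists by counts and up to 3 genes of smallest adjusted p for ATRA in WT, plus Bsg, Emb and Nptn. Genes outside this rule (Slc7a1, Slc7a7, Slc16a3, Slc1a1, Slc1a4, Slc6a9, Atf4, Chac1, Asns, Trib3, Phgdh, Psat1 and Psph) were chosen after their values were seen. Values of some members counted here are not reported. The table's positions are not those of GRCm38 and were not used. Promoter sequences came from RefSeq, and motifs were counted in Python 3.11.15. Alternatives were pseudocounts of 0.1 and 0.5, a filter at 5 FPKM and none, other scalings, the letter block and each library left out.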

Additional observations from a re-analysis of the deposited data

Results flagged for a closer look

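The effect of ATRA on 7 members described here differed between TKO and WT by the limma test of the difference itself (effect in TKO minus effect in WT, log2 scale). It was −1.427 for Slc43a3, −0.981 for Slc7a8, −0.958 for Slc38a5, −0.917 for Slc36a4 and −0.673 for Slc38a4, which rose in WT. It was 1.471 for Slc7a3 and 0.945 for Slc6a15, which fell in WT. The ATRA effects of these members in TKO all missed the threshold. Of the members named, Slc43a3 passed under every alternative in which it was tested. Slc7a8 did as well, but it reached 1 FPKM only in WT with ATRA and so had to differ to be tested, and its passing is no support.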

How the results depend on the processing

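No called member changed sign under any alternative, and 9 of 13 members called for ATRA in WT, 3 of 8 for the difference of effects, and, between genotypes, 5 of 11 in vehicle and 15 of 18 with ATRA were called under every one in which they were tested. With a filter at 5 FPKM, which leaves 29 members to test, 7, 3, 6 and 9 were called in that order (13.9%, 3.71%, 24.5% and 40.3% of the 9398 genes tested), and the median member difference between genotypes with ATRA was 0.029. The median member change with ATRA in WT, 0.090, was −0.049 with that filter, −0.014 with quantile normalization and 0.028 with median-of-ratios scaling, so its sign depends on the processing. With the letter as a replicate block 29 were called for ATRA in WT (55.7% of all genes), 20 for the difference (39.0%) and 0 in TKO (0.00%). For the TKO against WT comparisons the block was not run, since it would remove the spread between letters that is their replicate error. No paired analysis by the titles' numbers was possible because the columns carry letters. Leaving out each library gave 9 to 13 called for ATRA in WT, 0 to 0 in TKO, 6 to 9 for the difference, 5 to 13 in vehicle (5 without the D library of WT vehicle, 7 without D of TKO vehicle) and 15 to 21 with ATRA. Median member changes then ran from 0.057 to 0.141, −0.072 to 0.103, −0.205 to −0.001, −0.046 to 0.134 (0.134 without F of TKO vehicle) and −0.308 to −0.020 (−0.020 without F of TKO with ATRA). The share of all tested genes called for ATRA in WT moved as well. It was 16.7% with all libraries and lower when any WT library was left out. A lower member count there need not be particular to the members. For the other comparisons the shares of all genes with a library left out are not given here. The cause of these shifts was not tested. Without the G libraries of WT and the F libraries of TKO, Slc15a2, Slc16a13 and Slc7a6 missed the threshold for ATRA in WT (adjusted p = 0.0553, 0.0687 and 0.0512), Slc38a4 for the difference (0.103) and in vehicle (0.0591), Slc1a3 in vehicle (0.193), and Slc38a3 in vehicle and with ATRA (0.125 and 0.118). Slc38a3 with ATRA also missed it with quantile normalization (0.0952).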
